A study of Mus musculus with 7 samples.

Results

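Cells of CD1 mice that carried the label Sdc4+ were set against cells of CD1 mice that carried the label Sdc4-. CD1 is the outbred stock Crl:CD1(ICR), with no transgene named in the labels, and Sdc4 encodes syndecan-4, a heparan sulfate proteoglycan of the cell surface. Both members were chosen by their labels alone: they are 2 of the 7 populations of the series, each read on 1 single-colour Agilent 60-mer array. The series asks about the origin of dermal precursors that can form muscle, and about their tie to satellite cells (muscle stem cells). Per the labels, 8 to 10 animals stood behind each phenotype and 10 to 200 ng of RNA entered the labelling, and neither the tissue nor the way the cells were sorted is given there. The same labels also exist in a line with a Cspg4-cre transgene, B6,FVB-Tg(Cspg4-cre)1Akik/J, whose Cspg4- Sdc4+ and Cspg4- Sdc4- arrays share no array with the CD1 pair and are used below as a second comparison. Cspg4 is the gene of the NG2 proteoglycan of pericytes, and its promoter drives the Cre of that line. For a few genes the levels on the other 3 arrays are given too: Cspg4+ cells of the same line, Myf5SOR+ Sdc4+ cells of B6.129S4-Myf5tm3(cre)Sor/J mice, in which Cre was placed in the muscle gene Myf5, and B195AP+ Sdc4- cells of B195AP-Cre mice, whose driver the labels do not name. With 1 array per population no difference below has a replicate check, and no p-value is given.

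Syndecan-4 is found on satellite cells and on many other cells, fibroblasts of the dermis among them, where it binds growth factors and matrix proteins and acts in adhesion. When myogenic precursors differentiate, they leave the cell cycle, fuse and switch on myogenin, the embryonic and perinatal myosin heavy chains, troponins, the Z disc and M band proteins and the calcium release machinery. Bulk RNA from a population that holds such cells shows these transcripts together.

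The array sequences on which the comparison rests are 60-base probes. Stretches of 30 bases are given for the probe of Sdc4, which reads the label, for the 3 myosin heavy chain probes with the largest differences, and for the probes of the Fc receptors Fcgr2b and Fcgr3, 2 related genes. Capitals mark the longest run of letters that a probe shares with another probe of its set. The positions of the whole probes are in mm9, the build of the file headers, and each stretch reads 5′ to 3′ along the probe.
Sdc4 (chr2:164251211-164251270, - strand): agaatagaatataggaccagtttagatcct
Myh3 (chr11:66915724-66915783, + strand): taatttccacgtaTCACTtttccacatgca
Myh8 (chr11:67121925-67121984, + strand): aacaagctgcggGTGAAGAgccgagaggtt
Myh1 (chr11:67038002-67038061, + strand): gatgagcaaaatGTGAAGAtctttgtcact
Fcgr2b (chr1:172890988-172891047, - strand): tacgagattggtTCCCAAtggttgactgta
Fcgr3 (chr1:172984129-172984188, - strand): gtaatttctctaTCCCAAaagccaaccaca
The 7 myosin heavy chain probes measured in CD1 form 21 pairs, whose longest shared run was between 4 and 10 bases with a median of 6, and that of the Fcgr2b and Fcgr3 probes was 6 of 60 bases. The probes of these related genes thus had no long stretch of letters in common. Probes were compared with probes only, and whether a probe matches the transcript of a related gene was not checked.

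The values are log2 signals with the 75th percentile of their array set to 0, so a value of 1 is 2-fold above that level. Well above background were 50.8% of the gene spots of the Sdc4+ array and 48.6% of those of the Sdc4- array, with median signals of 16.2 and 14.6. Probes spotted at least 8 times had a median SD between spots of 0.0643 and 0.0628 log2 units. All arrays lay on 1 slide with 1 scan. The CD1 Sdc4+ array stood in slide row 1 and the CD1 Sdc4- array in row 2, as did the arrays of the Cspg4- line with the same labels, so an effect of the row cannot be told apart from one of the Sdc4 label. A gene was represented by its brightest probe, and 20382 genes were measured on at least 1 CD1 array: 18738 on both, 1141 on the Sdc4+ array alone and 503 on the Sdc4- array alone. For a gene on 1 array alone the difference is a bound against the dim array's lowest signal well above background, and is written as "at least".

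Both CD1 arrays had a bright patch. On the Sdc4+ array 69 spots in rows 101 to 124 and columns 161 to 164, at the edge of the array, lay a median of 3.35 log2 units above the other arrays. On the Sdc4- array 154 spots in rows 223 to 243 and columns 133 to 145 lay a median of 1.28 above them. Of the genes counted below, 25 of the 50 that were at least 4-fold higher in Sdc4+ cells had their probe in a patch, against 4 of the 124 that were at least 4-fold lower. Without the patches these counts were 25 and 120. The probes of Kiss1, Tex52, Grip2, Klra8, Vmn2r105, Esco2, Gnrhr and Spin2d, 8 of the 10 highest bounds in Sdc4+ cells among genes with a plain symbol, lay in the patch of that array. Their values, such as 0.82 for Kiss1 against -5.87 on the Sdc4- array, are not read as differences between the cells. Among the members of the gene lists, Acta1, Cenpe and Tgfb3 had a spot of their brightest probe in a CD1 patch. In the second comparison, the Cspg4- Sdc4+ array also had a patch, of 33 spots in rows 199 to 206 and columns 130 to 134. These lay a median of 2.37 log2 units above the other arrays, and 20 of them were at least 4-fold above the Cspg4- Sdc4- array. The counts given below for that line include these spots.

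**Figure D1:**
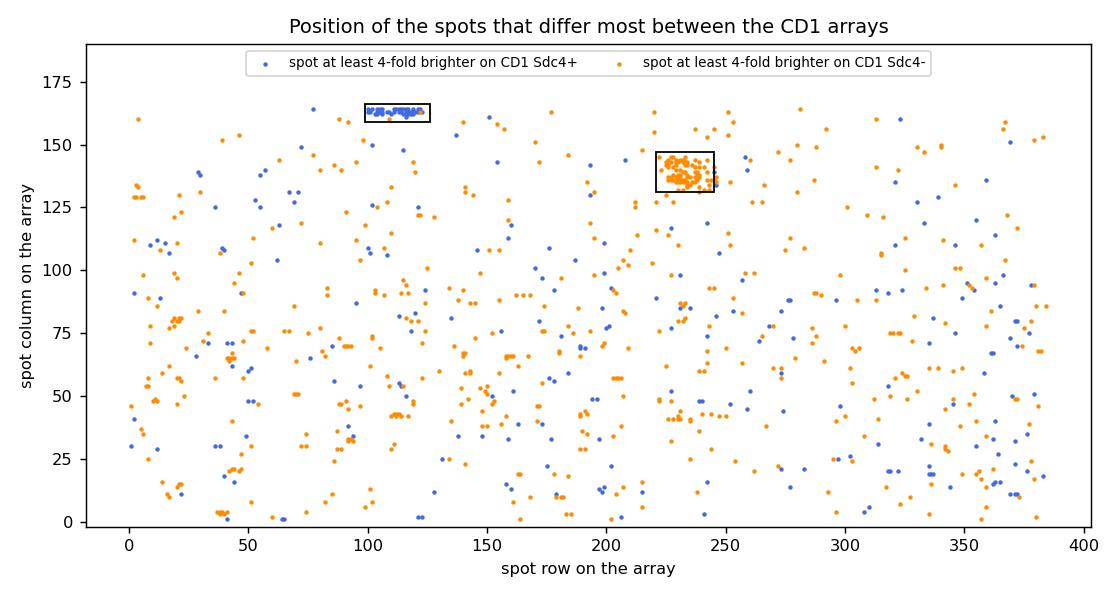
Spots at least 4-fold apart between the CD1 arrays, by spot row (horizontal) and spot column (vertical) on the array, blue where the CD1 Sdc4+ array was brighter and orange where the CD1 Sdc4- array was brighter. The black frames enclose the patches of 69 spots (top edge) and 154 spots (right of centre), where spots of one colour crowd together; elsewhere both colours are scattered.

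Over all measured genes, 392 were at least 2-fold higher in CD1 Sdc4+ than in CD1 Sdc4- cells (1.92%) and 599 at least 2-fold lower (2.94%). At least 4-fold, 50 were higher (0.245%) and 124 lower (0.608%). The median difference over the genes measured on both arrays was -0.05. The split depended on the values used: the deposited series table gave 470 higher and 385 lower at 2-fold, or 55.0% higher against 39.6% here, and 119 higher and 80 lower at 4-fold, or 59.8% against 28.7%. Leaving out the patches gave 17.2% higher at 4-fold.

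The largest differences were in genes of striated muscle. Of 122 genes in 7 lists of contractile, calcium, energy and synapse genes, 102 were measured, and 61 of these were at least 2-fold lower in Sdc4+ cells (59.8%) against 2.94% of all genes, while 1 was at least 2-fold higher (0.98%) against 1.92%. At least 4-fold lower were 45, so these lists held 45 of the 124 genes of the array at that size. Their median difference was -1.29, beside -0.03 for all measured genes with bounds counted. Of the 102, 29 were well above background on the Sdc4- array alone, beside 503 of all 20382 genes. The bound of such a gene cannot be above 0, which raises the share of lower genes. The 72 striated genes on both arrays had a median of -0.96, beside -0.05 for all genes on both. That the striated genes are low in Sdc4+ cells across the series was known when the lists were drawn up. In RNA of whole populations, fewer cells of a type and less RNA per cell cannot be told apart.

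**Figure D2:**
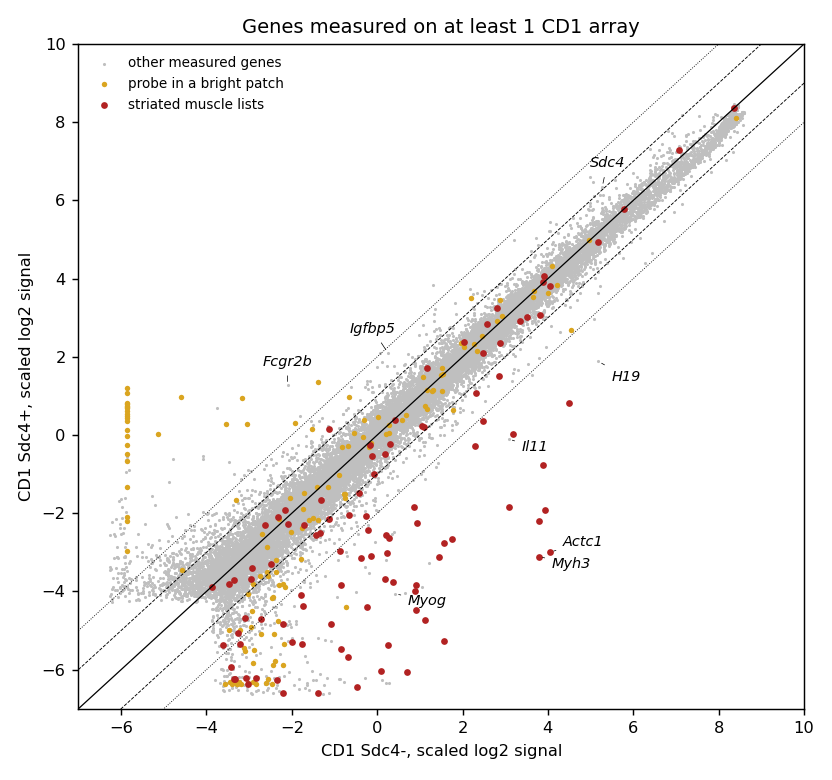
Each point is a gene measured on at least 1 CD1 array, by its scaled log2 signal on the CD1 Sdc4- array (horizontal) and on the CD1 Sdc4+ array (vertical); lines mark equality, 2-fold (dashed) and 4-fold (dotted). Signals at background are plotted as they are, not as bounds. Genes of the striated muscle lists (red) therefore lie below the lower dotted line in at least 45 cases. Genes with a spot in a patch (yellow) form vertical and horizontal rows at the background level.

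The gene of the label, Sdc4, stood at 6.35 on the Sdc4+ and 5.27 on the Sdc4- array, a difference of 1.07 or 2.11-fold, from its only probe. The transcript was thus far above background in the cells labelled negative too. In the Cspg4- line the values were 6.28 and 5.10, a difference of 1.18. The other syndecans moved less: Sdc1 was at 5.30 and 4.78, Sdc3 was at 2.07 and 2.36, and Sdc2 differed by 1.06-fold. Among the glypicans, cell surface proteoglycans held by a lipid anchor, Gpc3 was 2.41-fold lower in Sdc4+ cells, at 0.20 against 1.47. Of 8 measured syndecans and glypicans, 1 was at least 2-fold higher (12.5%, beside 1.92% of all genes) and 1 lower (12.5%, beside 2.94%). Cspg4 differed by less than 1.2-fold, at 1.18 and 1.02.

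The transcription factors that define muscle stem cells were not measurable on these arrays. Pax7, Pax3 and Myf5 were not well above background on either CD1 array, and Myod1, the factor that commits cells to the muscle lineage, was so on the Sdc4- array alone, where it was at least 2.40-fold higher. Myog, the factor that acts at the onset of differentiation, was at -4.06 on the Sdc4+ and 0.42 on the Sdc4- array by 10 spots of its probe, 22.3-fold lower in Sdc4+ cells. In the Cspg4- line the same gene was 2.08-fold lower. Meox1 and Meox2, homeobox factors of embryonic somites and muscle, were 2.02-fold and 2.27-fold lower. Bhlhe41, a repressor of the helix-loop-helix class, was 2.22-fold higher, and its second probe gave 0.51. Of the 22 measured myogenic regulators, 5 were at least 2-fold lower (22.7%, beside 2.94% of all genes) and 1 higher (4.55%, beside 1.92%), with a median of -0.13 that was 0.32 by second probes.

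The myosin heavy chains were low in Sdc4+ cells. Of 11 genes, 7 were measured, with a median of -2.50. Of these, 6 were at least 2-fold lower in Sdc4+ cells (85.7%, beside 2.94% of all genes) and 5 at least 4-fold lower (beside 0.608%). Of the 7, 3 were on the Sdc4- array alone, where a bound cannot be above 0. The 4 on both arrays had a median of -4.04. Myh3, the embryonic heavy chain, was at -3.11 on the Sdc4+ and 3.79 on the Sdc4- array, 119-fold lower, and its 2 probes gave -6.90 and -6.70. Myh8, the perinatal heavy chain, was at -2.19 and 3.80, 63.4-fold lower by its brightest probe; of 3 dimmer probes 1 gave a bound of -1.21 and 2 were not well above background, and the median of its probes was -0.26. Myh1, the fast IIx heavy chain of adult fibres, was not well above background on the Sdc4+ array and at 1.58 on the Sdc4- array, at least 57.6-fold lower. The adult fast Myh4 was at least 5.66-fold lower and the slow Myh7 was 4.27-fold lower. Myh2 was not well above background on either array.

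On the arrays outside the CD1 pair, Myh3 was at 1.84 on Cspg4- Sdc4-, 1.13 on B195AP+ Sdc4-, -2.16 on Cspg4+, -4.19 on Cspg4- Sdc4+ and -5.76 on Myf5SOR+ Sdc4+. The CD1 Sdc4- array was thus the highest of the 7 for Myh3. It was also the highest for Myh8, Myh1, Actc1, Myl1, Myog, Des and Acta1, each compared with itself across arrays.

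The partners of myosin in the thick filament followed. Myl1, the essential light chain of fast fibres, was at -1.91 and 3.94, 57.7-fold lower in Sdc4+ cells, with a bound of -4.20 from its second probe. Mybph and Mybpc1, myosin binding proteins, were at least 36.3-fold and 17.5-fold lower, and Myl4, the embryonic and atrial light chain, 12.9-fold lower. Mylk2, the kinase that phosphorylates the fast regulatory light chain, was 2.41-fold higher in Sdc4+ cells, at 0.15 against -1.12, the only striated muscle gene of the 102 past 2-fold in that direction. In this list of 13, 7 genes were measured, 2 of them on the Sdc4- array alone. At least 2-fold lower were 5 (71.4%, beside 2.94% of all genes).

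Of 17 troponins, tropomyosins and striated actins, 16 were measured, all on both arrays. Of these, 10 were at least 2-fold lower in Sdc4+ cells (62.5%, beside 2.94% of all genes), with a list median of -2.40. Actc1, the cardiac actin also made by developing skeletal muscle, showed the largest difference of the array, -2.99 against 4.05 or 132-fold lower. Tnni2, the inhibitory subunit of fast fibres, was at -1.85 and 3.09, 30.8-fold lower, and the slow form Tnni1 was 26.8-fold lower. The calcium-binding subunit Tnnc2 was at -0.75 and 3.89, Tnnt2 was 23.6-fold lower, and the 2 probes of Tnnt3 gave -4.33 and -4.14. Fast, slow and embryonic isoforms were thus low together. Acta1, the skeletal actin, was at 0.02 and 3.19, 8.96-fold lower, from a spot inside the bright patch of the Sdc4+ array.

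Genes of the Z disc, M band and the giant filaments gave 17 of 22 measured genes at least 2-fold lower (77.3%, beside 2.94% of all genes). None was at least 2-fold higher (beside 1.92%), and the median was -2.18. Of the 22, 10 were on the Sdc4- array alone. Ttn, titin, was not well above background on the Sdc4+ array and at 0.10 on the Sdc4- array, at least 20.7-fold lower, and its 4 probes gave bounds between -4.56 and -1.82. Neb, nebulin, was at 0.90 on the Sdc4- array and 29.7-fold lower on the Sdc4+ array. Pdlim3, a Z disc adaptor, was at least 41.7-fold lower, Myom2, a protein of the M band, 21.4-fold lower, and Tcap, which caps titin, 14.3-fold lower. Csrp3, Myot, Smpx, Myoz2, Myom1 and Klhl41 were well above background on the CD1 Sdc4- array and on none of the other 6, with bounds between 2.28-fold and 7.41-fold.

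Membrane and calcium genes showed the same direction in 16 of 19 measured members, 8 of the 19 on the Sdc4- array alone. At least 2-fold lower were 11 (57.9%, beside 2.94% of all genes), and the list median was -1.22. Cacna1s, the voltage sensor of the T tubule, was at least 31.6-fold lower in Sdc4+ cells, and Ryr1, the calcium release channel it opens, at least 9.06-fold. Sln, which regulates the calcium pump, was at least 23.0-fold lower and Casq2, a calcium store protein, at least 12.0-fold. Mymk, the membrane protein required for myoblast fusion, was at -3.08 and -0.15, 7.64-fold lower. Its partner in fusion Mymx was at 0.24 and 1.04, short of 2-fold. Cav3, the caveolin of muscle fibres, which is in the dystrophin list, was at -3.89 and 1.05, 30.8-fold lower. That list of 16 measured genes had a median of -0.04, with 3 genes at least 2-fold lower (18.8%, beside 2.94% of all genes). Cav3 and Sgca, a sarcoglycan, were among the 3.

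Muscle energy genes and synapse genes differed less as lists. In the energy list 9 of 19 were at least 2-fold lower (47.4%, beside 2.94% of all genes). Cox8b and Cox6a2, muscle isoforms of cytochrome oxidase subunits, were at least 16.2-fold and 7.59-fold lower. Pgam2, a glycolytic enzyme, was 6.53-fold lower. Ckm, the creatine kinase of muscle, was at least 3.77-fold lower. Of 12 measured synapse genes 3 passed 2-fold: Chrnd, a subunit of the fetal and adult acetylcholine receptor, at -3.02 and 0.23, was 9.47-fold lower, Musk, the kinase that clusters the receptor, 2.26-fold, and Colq, the collagen tail of acetylcholinesterase, at least 2.25-fold, with 0.00 by the median of its probes. Des, desmin, was at -3.53 and -0.18, 10.2-fold lower, and Cdh15, the M-cadherin of myoblasts, 3.02-fold lower. Both are in the list of satellite cell surface and niche genes, whose 19 measured members had a median of 0.11. By second probes this median was -0.16, and without a detection filter -0.11. In that list Heyl, a transcription factor downstream of Notch, was 3.52-fold higher, at -1.42 against -3.24.

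**Figure D3:**
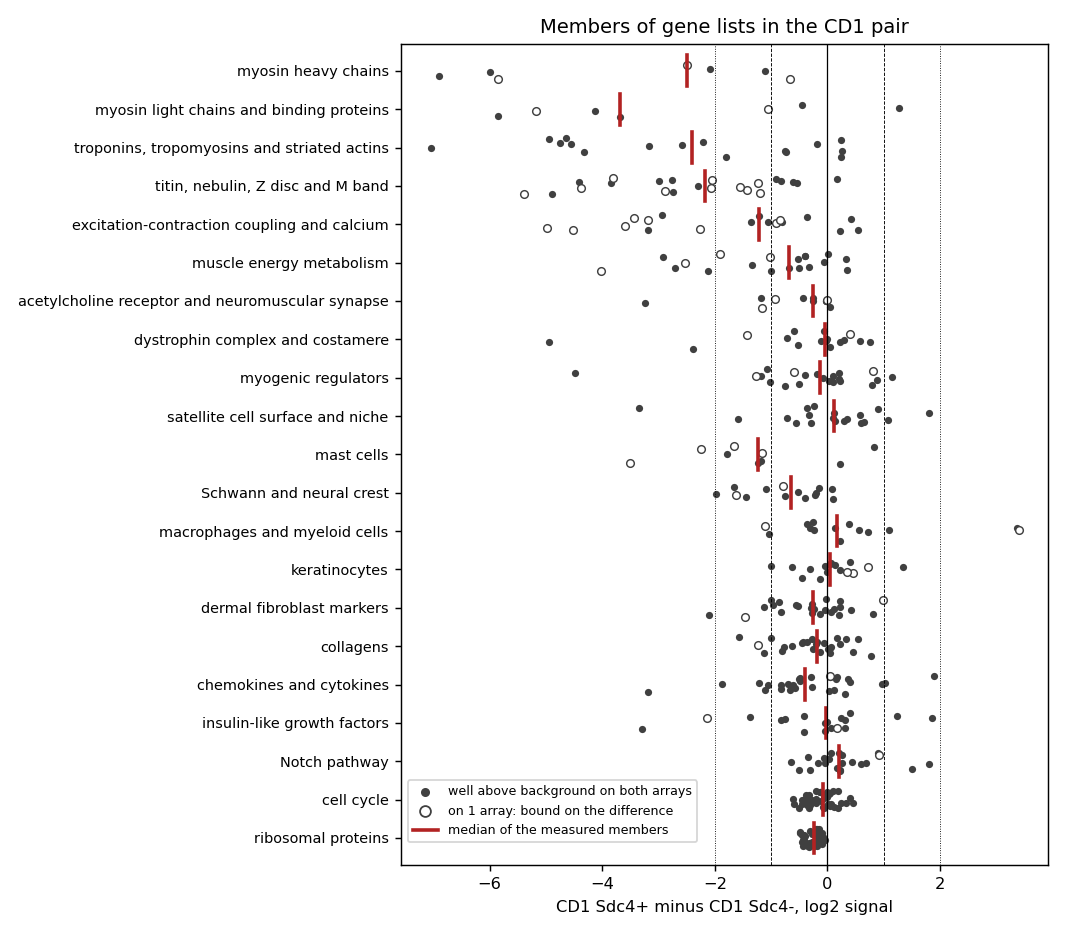
CD1 Sdc4+ minus CD1 Sdc4- in log2 units for the measured members of 21 gene lists; filled points were well above background on both arrays, open points on 1 array (a bound), and the red bar is the list's median. The first 5 lists have medians between -3.69 and -1.22, while cell cycle and ribosomal protein genes lie inside the 2-fold lines.

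Promoters of the low striated genes were read from RefSeq (GRCm38.p6), as the 250 bases before each listed start. Of the 45 genes at least 4-fold lower, 31 had a window. The letters CANNTG, the E-box bound by Myod1 and Myog, were in a window of 26 of the 31 (83.9%) and of 62.3% of the 11366 measured genes with a window. CAGCTG, a subset of the former, was found for 14 of 31 (45.2%) and 14.4%. The MEF2 box was found for 7 of 31 (22.6%) and 2.14%, and the CArG box for 3 of 31 (9.68%) and 1.54%. Over all 32851 windows of the table, the shares of windows were 66.2%, 13.0%, 2.92% and 1.47%. Both strands were searched, and a match is a description of letters, with no data here on binding. Windows of 3 low genes are printed, the regulator Myog, which has no MEF2 box by this pattern, the heavy chain gene Myh8 and the enzyme gene Pgam2, with CANNTG and MEF2 boxes in capitals.
Myog (chr1:134289754-134290003, + strand): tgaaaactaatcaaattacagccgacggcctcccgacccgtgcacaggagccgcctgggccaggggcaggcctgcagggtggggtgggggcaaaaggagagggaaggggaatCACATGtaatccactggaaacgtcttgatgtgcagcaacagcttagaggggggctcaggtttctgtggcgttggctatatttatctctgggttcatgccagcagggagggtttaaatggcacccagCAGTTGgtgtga
Myh8 (chr11:67276874-67277123, + strand): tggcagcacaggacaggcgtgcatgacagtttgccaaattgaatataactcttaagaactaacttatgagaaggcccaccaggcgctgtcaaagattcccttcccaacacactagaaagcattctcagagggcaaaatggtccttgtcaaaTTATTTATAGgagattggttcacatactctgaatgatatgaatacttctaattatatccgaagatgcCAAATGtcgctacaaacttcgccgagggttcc
Pgam2 (chr11:5803797-5804046, - strand): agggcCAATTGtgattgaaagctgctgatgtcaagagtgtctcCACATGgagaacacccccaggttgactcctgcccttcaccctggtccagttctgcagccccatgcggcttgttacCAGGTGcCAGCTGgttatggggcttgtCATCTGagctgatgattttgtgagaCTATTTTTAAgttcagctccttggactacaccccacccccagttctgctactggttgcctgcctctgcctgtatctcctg
The CAGCTG of Pgam2 began 125 bases before the start and its MEF2 box 80 bases before it. In Myog the capitals begin 138 and 12 bases before the start.

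The list of insulin-like growth factors, with their receptors, binding proteins and H19, was split. Of 18 measured genes, 9 were higher and 9 lower, with 2 at least 2-fold higher (11.1%, beside 1.92% of all genes) and 3 at least 2-fold lower (16.7%, beside 2.94%), and a median of -0.02. H19, an imprinted long noncoding RNA of fetal tissue and differentiating muscle, was at 1.88 and 5.18, 9.86-fold lower, and its 6 measured probes lay between -3.31 and -3.02. Igf2, the growth factor gene beside it, was not well above background on the Sdc4+ array and at least 4.43-fold lower. Dlk1, an imprinted ligand-like membrane protein of preadipocytes and fetal muscle that stands in the dermal fibroblast list, was at 2.96 and 5.07, 4.30-fold lower, with -2.10 and -1.90 by its 2 probes. Igf1 was 2.60-fold lower, although its 5 probes ran from -1.41 to -0.37. Both genes past 2-fold in the other direction encode binding proteins of these factors: Igfbp5 was 3.62-fold higher in Sdc4+ cells, at 2.10 against 0.25, and Igfbp2 was 2.35-fold higher.

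Mast cell genes were lower in CD1 Sdc4+ cells. Of 9 measured genes of 12, 7 were at least 2-fold lower (77.8%) beside 2.94% of all genes, with a median of -1.24. Of the 9, 4 were on the Sdc4- array alone, where a bound cannot be above 0. The 5 on both arrays had a median of -1.18. Cpa3, the carboxypeptidase of mast cell granules, was not well above background on the Sdc4+ array and at -0.77 on the Sdc4- array, at least 11.3-fold lower. Hdc, which makes histamine, was at -2.39 and -0.61, 3.44-fold lower, and the proteases Tpsab1, Cma1 and Tpsb2 were at least 4.71-fold, at least 3.18-fold and 2.26-fold lower. Kit, the receptor of stem cell factor, which mast cells share with melanocytes, was 1.78-fold higher in Sdc4+ cells. The high-affinity IgE receptor genes Fcer1a and Ms4a2 were not well above background. The summed linear signal of the 12 genes, in units of the array's 75th percentile, was 1.80 on the Sdc4+ and 3.54 on the Sdc4- array. In the Cspg4- line it was 5.06 and 2.93, with a median difference of 0.91, so the list medians of the lines had opposite signs. There 4 of 9 measured genes were at least 2-fold higher (beside 4.42% of all genes).

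Genes of Schwann and neural crest cells were lower in 12 of 14 measured members, and 5 were at least 2-fold lower (35.7%, beside 2.94% of all genes), with a median of -0.64 that was 0.09 by second probes. S100b, a calcium-binding protein of Schwann cells, was at -1.95 and 0.02, 3.94-fold lower, and Nes, nestin, an intermediate filament that myoblasts also make, was 3.16-fold lower. Ngfr was at least 3.07-fold, Gap43 2.74-fold and Tfap2a 2.13-fold lower. Sox10, Erbb3 and Cdh19, defining genes of the list, were not well above background on either array. Pmel, a protein of pigment organelles, was 3.88-fold lower, while Mc1r, Tyrp1 and Oca2 were not well above background. Pmel was the only 1 of 8 measured melanocyte genes at least 2-fold lower (12.5%, beside 2.94% of all genes). Another 1 was at least 2-fold higher (12.5%, beside 1.92%). The median of the melanocyte list was -0.16, and 0.10 with the series table. Its summed signal was 81.6 on the Sdc4+ and 50.6 on the Sdc4- array.

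The clearest increases in Sdc4+ cells outside the patches were Fc receptors. Fcgr2b, the inhibitory receptor for IgG, was at 1.28 and -2.09 by 10 spots of its probe, 10.4-fold higher. Fcgr3, an activating receptor for IgG, was at -0.53 on the Sdc4+ array and not well above background on the Sdc4- array, at least 10.6-fold higher. In the Cspg4- line these genes were 19.7-fold and at least 24.4-fold higher in Sdc4+ cells. Fcgr1 and Fcgr4 were not well above background. As a list, genes of myeloid cells had a median of 0.18. Of 14 measured genes of 30, 3 were at least 2-fold higher, Fcgr2b and Fcgr3 among them (21.4%, beside 1.92% of all genes). The list had 2 at least 2-fold lower (14.3%, beside 2.94%). Ptprc, Adgre1, Lyz2, C1qa, Tyrobp, Cx3cr1 and Spi1, which define leukocytes and macrophages, were not well above background on either CD1 array. The summed signal of the list was 45.6 and 42.5. The part of myeloid cells in these values was not tested beyond this.

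Cytokine genes went both ways. Tnf, tumour necrosis factor, was at -0.61 and -2.49 by 10 spots, 3.70-fold higher in Sdc4+ cells, and Cd83, a surface protein of activated antigen-presenting cells, was 2.88-fold higher. Il11, a cytokine of the interleukin 6 family, was at -0.11 and 3.08, 9.13-fold lower, while in the Cspg4- line it was at 1.68 and 1.65. Csf3, the granulocyte growth factor, was 3.66-fold lower, and the neutrophil chemokines Cxcl2 and Cxcl3 were 2.16-fold and 2.32-fold lower. Of 28 measured chemokines and cytokines, 2 were at least 2-fold higher (7.14%, beside 1.92% of all genes) and 5 lower (17.9%, beside 2.94%). The brightest probe of Cxcl11 had no value on the Sdc4+ array, where its spot was marked as an outlier, and its second probe gave 3.06 and 3.07. The early response genes Jun, Egr1 and Ier3 were 2.34-fold, 2.10-fold and 2.02-fold lower. They were the only 3 of 31 past 2-fold (9.68%, beside 2.94% of all genes lower). Saa3, an acute phase protein, was 2.07-fold higher.

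Among matrix and signalling genes, increases were few and moderate. The collagenases Mmp13 and Mmp8 were 3.62-fold and 3.57-fold higher, at 3.22 against 1.36 and 1.23 against -0.60. No other of 27 measured proteases and inhibitors passed 2-fold, so 7.41% were higher, beside 1.92% of all genes. Ltbp2, a matrix protein related to the binding proteins of latent TGF-beta, was at 4.99 and 3.20, 3.46-fold higher. Dll1, a Notch ligand, was 2.84-fold higher. With Heyl it made up the 2 of 23 measured Notch genes past 2-fold (8.70%, beside 1.92% of all genes higher). Lgr6, a receptor for R-spondins, was 3.13-fold higher, and the frizzled receptor Fzd7 2.02-fold by 1 probe and 0.02 in log2 units by its other probe. Col1a1 and Col3a1, the main fibrillar collagens of the dermis, were 2.01-fold and 2.18-fold lower, at 4.94 against 5.95 and 5.04 against 6.16. Of 26 measured collagens 4 were at least 2-fold lower (15.4%, beside 2.94% of all genes) and none higher (beside 1.92%). Bmp7 and Gdf10, ligands of the BMP family, were 3.30-fold and 2.46-fold lower, and Rspo4, a secreted Wnt agonist, was 3.13-fold lower.

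Genes with at least 2 probes on both arrays gave a further check of the probe, not of the cells. Of 9790 pairs of probes of 4931 genes, 69.7% had the same sign. Where 1 probe was at least 2-fold apart the share was 85.1% of 415 pairs, from 209 genes. Where 1 probe was at least 4-fold apart it was 90.6% of 32 pairs, from 13 genes. Pairs of the same gene are not independent, and H19 with its 6 probes gives many of the 32. In 5 of the 32 pairs (15.6%) the probes lay more than 2 log2 units apart. Ranked by their smallest probe, the highest genes were Trpc4, a cation channel, at 0.48 and -1.81 with 2.10 and 2.29 by its probes, Lce1i, a cornified envelope protein, at 2.82 and 1.07, and Tmem179 at 1.38 and -0.24. Ivl, involucrin, another envelope protein of keratinocytes, gave 1.30 and 1.34. The long noncoding RNA NEAT1 was at 5.46 and 4.06, higher by 5 probes, from 1.24 to 1.43. Nrp2, a receptor for semaphorins and VEGF-C, was at 4.25 and 3.22. Beside Myh3, Tnnt3, H19 and Dlk1, the lowest were Ptprz1, a receptor phosphatase of glia, at -3.37 and -0.29 with -3.08 and -2.98 by its probes, Sh2d5 at -1.15 and 0.85, and Ramp3, a partner of the calcitonin receptor family, at 1.97 and 3.80.

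Some lists had no gene at least 2-fold apart. This held for 43 measured cell cycle genes with a median of -0.08 and 33 interferon response genes with 0.15. It also held for 20 Hox genes with -0.07 and 37 oxidative phosphorylation genes with -0.16. Of all genes 1.92% were at least 2-fold higher and 2.94% lower, so few such genes would fall in lists of this size at those shares. All 38 ribosomal protein genes were slightly lower, with a median of -0.25, and 26 of them had a saturated spot on at least 1 CD1 array. Xist was at 1.37 and 1.26, and the 4 genes of the Y chromosome in the list were not well above background on either CD1 array. Keratinocyte genes split: of 16 measured genes of 26, Ivl was 2.53-fold higher and Krt5 2.01-fold lower, with a median of 0.05. Endothelial genes were near the median of the array, with Vwf, a clotting protein, 3.12-fold higher by its brightest probe and 0.00 by its second, and Cdh5, Tek, Tie1 and Cldn5 not well above background.

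**Figure D4:**
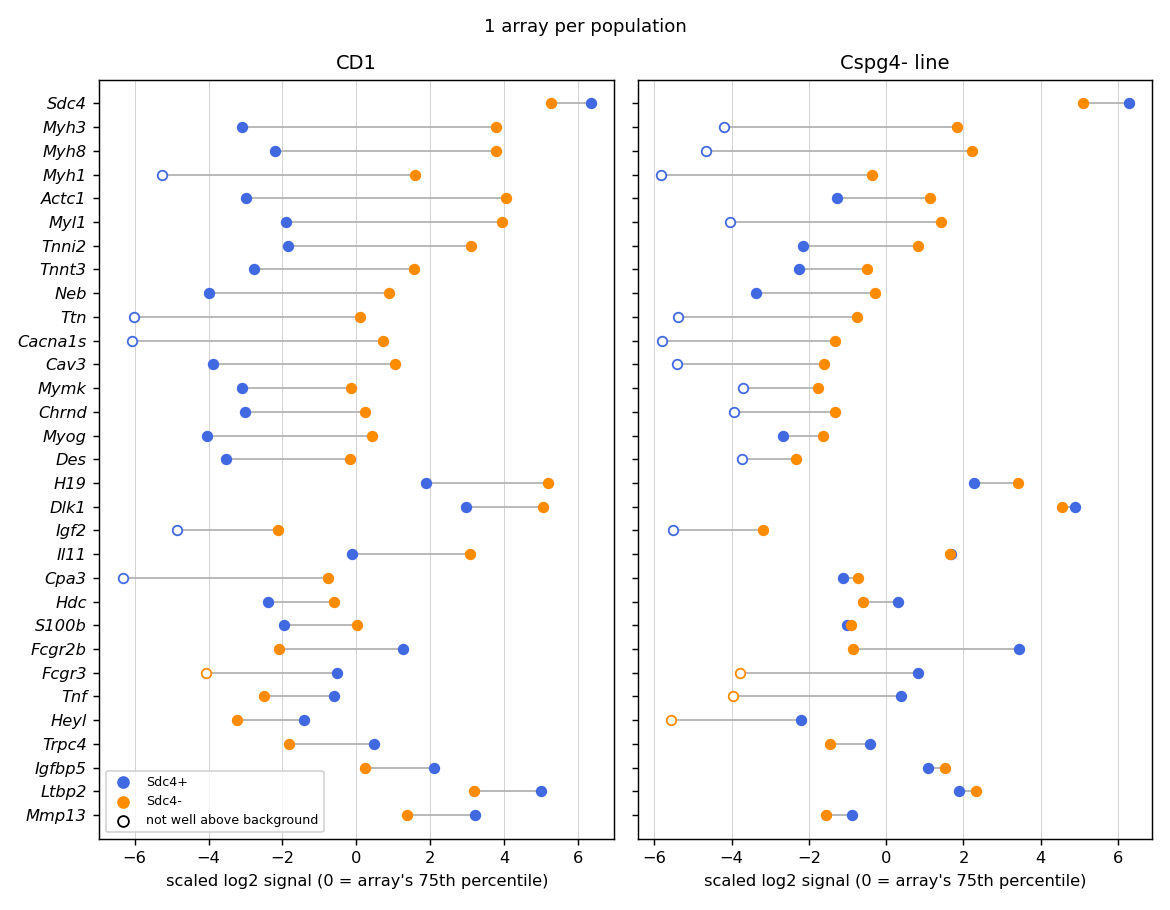
Scaled log2 signal (horizontal) of 31 genes on the CD1 arrays (left) and on the arrays of the Cspg4- line (right), blue for Sdc4+ and orange for Sdc4-; open circles were not well above background. Muscle genes from Myh3 to Des have the orange point on the right in both panels, and Fcgr2b, Fcgr3 and Tnf have the blue point on the right in both.

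In the Cspg4- line, 19176 genes were measured in both lines, and 847 of these were at least 2-fold higher in Sdc4+ cells (4.42%) and 476 at least 2-fold lower (2.48%). Of 282 genes at least 2-fold higher in CD1 and measured in both lines, 201 had the same sign in the Cspg4- line (71.3%, beside 49.9% of all genes) and 82 were also at least 2-fold higher (29.1%, beside 4.42%). Of 432 genes at least 2-fold lower in CD1, 318 had the same sign (73.6%, beside 49.2%) and 84 were also at least 2-fold lower (19.4%, beside 2.48%). At least 4-fold, 9 of 17 higher genes had the same sign. Among the 17 were genes with their probe in the bright patch of the Sdc4+ array, such as Alox12b, Spef1l and Esco2. The 4-fold share without the patches was not counted. Of 85 genes at least 4-fold lower, 68 had the same sign. For the striated lists the last count was 37 of 40 (92.5%, beside 76.5% of all 85 striated genes measured in both lines). Outside them it was 31 of 45 (68.9%, beside 49.1%). The pairs were not hybridised as replicates of each other, and the difference between lines was not tested.

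The striated genes of the lines are set side by side here; with bounds in both lines, which difference was larger was not read. Over the 7 lists the median was -1.29 in CD1 and -0.67 in the Cspg4- line. At least 2-fold lower were 61 of 102 measured genes in CD1 (beside 2.94% of all genes) and 30 of 85 in the Cspg4- line (beside 2.48%). Actc1 was 132-fold lower in CD1 and 5.36-fold in the Cspg4- line, and Myog 22.3-fold and 2.08-fold. Myh8 was 63.4-fold lower in CD1 and at least 56.5-fold lower in the Cspg4- line. In this line Tnf was at least 19.8-fold higher in Sdc4+ cells, and the increases of Igfbp5, Ltbp2 and Wfdc12 in CD1 faced -0.43, -0.44 and -0.45.

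**Figure D5:**
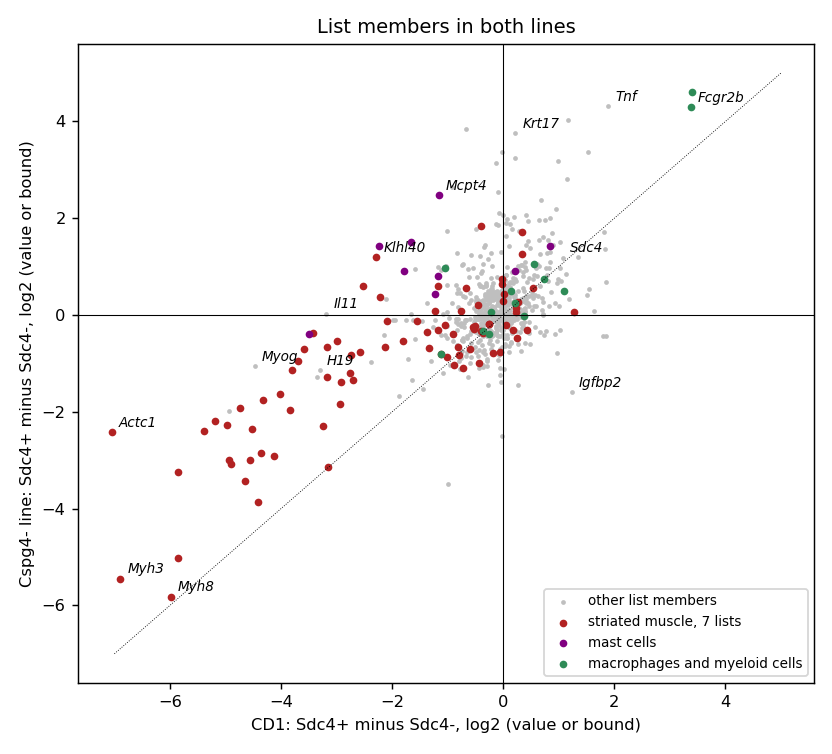
Sdc4+ minus Sdc4- in log2 units for list members measured in both lines, CD1 (horizontal) against the Cspg4- line (vertical), with bounds plotted as values and equality dotted. Striated muscle genes (red) fill the lower left, Fcgr2b and Fcgr3 (green) the upper right, and 4 mast cell genes (purple) lie at least 1 unit up in the Cspg4- line.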

How the data were processed

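Labelled RNA of each population was hybridised to Agilent SurePrint G3 8x60K mouse arrays, per the labels. The label named there is biotin, and the scanner files have a green channel only. Per the file headers, Agilent Feature Extraction 11.5.1.1 made the deposited intensity per spot. A deposited table of log2 values for the series served as an alternative. The submitters' processing notes name lumi, with no version. The table's column medians ran from 5.15 to 5.17 with a maximum of 18.1, and how it was centred stays unknown. Per the labels, each population has 1 array, so nothing was tested, and the number of arrays limits the precision.

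Processed intensity of the 59305 non-control spots per array was put on a log2 scale, and the array's 75th percentile was subtracted. Outlier spots (168 and 153 on the CD1 arrays) were set to missing, spots of the 55681 probes were averaged, and the brightest probe stood for a gene. Of the probes, 27656 were named by accession through RefSeq (1711 under another symbol) and 28025 kept the file's name, giving 34947 names, of which 14558 were well above background on neither CD1 array and 7 had no value. On 1 array alone, the difference is the bright value minus the higher of the dim probe's value and that array's lowest signal well above background (-4.27 and -3.93). Python 3.11.15, R 4.3.3 and limma 3.58.1 were used, and the code was tested on simulated data.

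The 41 lists and their 962 genes, the members and the rules were chosen with earlier results of these data known. The rule named the syndecans, Cspg4 and Myf5, up to 6 members per list, the 15 highest and lowest genes by 2 or more probes, the 10 highest and lowest bounds, and genes 4-fold opposite between lines. Other genes named, such as the further collagens and the probe and promoter examples, were chosen after their values were seen. Alternatives were other scalings, normexp background, the series table, other probes, other detection rules, outliers kept and, chosen after seeing the data, patches left out and striated lists left out. A patch is the spots whose window of 7 rows by 5 columns lay over 0.6 log2 units from the array's median deviation. A few items that these rules select are not reported here.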

Additional observations from a re-analysis of the deposited data

Results flagged for a closer look

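The genes below were at least 2-fold higher in Sdc4+ cells of 1 line and at least 2-fold lower in the other, bounds included. With 1 array per population the difference between lines was not tested. In each sentence the first value is the log2 difference in CD1 and the second that in the Cspg4- line. Mast cell proteases were lower in CD1 and higher in the Cspg4- line: Cma1 gave -1.67 and 1.51, Mcpt4 -1.16 and 2.48, and Tpsab1 -2.24 and 1.42. Klhl40, a stabiliser of thin filament proteins, gave -2.29 and 1.19, and Meox2, a homeobox factor, -1.18 and 1.00. Mylk, the myosin light chain kinase of smooth muscle, gave -1.03 and 1.01, but its second probe gave 0.51 in CD1. Krt5, a keratin of basal keratinocytes, gave -1.01 and 1.74. The opposite order held for Igfbp2, with 1.23 and -1.60, and for NEAT1, with 1.40 and -1.14.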

How the results depend on the processing

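All values are for CD1 Sdc4+ against Sdc4-. No paired analysis was possible because each population has 1 array, so no replicate could be left out. The spread used was 0.20 log2 units, that of the Sdc4+ minus Sdc4- difference of a single probe, estimated from pairs of probes of 1 gene. A count was taken to move past 1.5 times. Of the genes named or listed, 1 reversed: Mylk, at 0.51 with its second brightest probe. Of their other values under the alternatives, 1670 stayed within the spread and 450 moved past it. Of 209 of these genes at least 2-fold apart, 94 came under 2-fold with normexp, 41 of 208 with the series table, 22 of 208 with the median of all probes, 7 of 49 with the second probe, 9 with median scaling, 9 with the percentile over probes detected on all arrays and 13 with quantile normalization, and 0 under the other alternatives. Among genes named in the text outside the patches, the second probe ended the calls of Vwf (0.00), Fzd7 (0.02), Pgm5 (-0.47) and Bhlhe41 (0.51). The median of all probes ended those of Colq (0.00), Smpx (-0.11), Myh8 (-0.26), Mylk (-0.26), Pgm5 (-0.47), Fzd7 (0.52), Dll1 (0.61) and Lce1c (0.61). It also ended those of Igf1 (-0.66), Tfap2a (-0.76), Krt5 (-0.83), Bhlhe41 (0.83) and Vwf (0.94). Each of these 3 scalings ended those of Col1a1, Ier3, Krt5, Meox1 and Mylk. Normexp ended those of Tnf (0.94), Heyl (0.63), Cd83 (0.65), Lgr6 (0.71), Hdc (-0.91) and Cdh15 (-0.92), among others. The 7 striated lists together kept a median below 0 in every alternative run, between -1.36 and -0.72. Every alternative is against 392 higher and 599 lower genes at 2-fold and 50 and 124 at 4-fold, and is given in that order. Normexp, which adds an offset of 50 to the corrected signal, gave 112, 186, 9 and 37. The second brightest probe, which leaves out genes with 1 probe, gave 122, 130, 11 and 22. Genes on both arrays only gave 261, 368, 14 and 59, and no detection filter 1093, 1668, 145 and 364. The series table gave 385 lower at 2-fold, and 119 and 80 at 4-fold. Leaving out the patches gave 25 at 4-fold higher.

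Of list medians, 28 moved past the spread in 7 lists with a median at least 2-fold from 0, and 26 in 17 other lists, 12 of these to the other sign. Those of the 7 lists follow. For myosin heavy chains (-2.50) they were -1.07 with normexp, -2.12 with the series table, -2.09 with the median of all probes, -3.96 with the second probe, -4.04 on both arrays only and -1.75 without a filter. For light chains and binding proteins (-3.69) they were -2.15 with normexp, -3.26 with the table, -3.33 with the second probe and -1.04 without a filter. For troponins and actins (-2.40) they were -1.67 with normexp, -1.99 with the table, -2.63 with the median of probes and -0.94 with the second probe. For the Z disc and M band (-2.18) they were -0.87 with normexp, -1.78 with the table, -1.80 with the median of probes, -2.52 on both arrays only and -2.76 without a filter. For calcium genes (-1.22) they were -0.80 with normexp, -0.28 with the second probe and -0.89 on both arrays only. For mast cells (-1.24) they were -0.61 with normexp, -1.67 with the median of probes and -2.79 with the second probe. For the 7 lists together (-1.29) they were -0.72 with normexp, -0.94 with the second probe and -0.96 on both arrays only.

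The share of 2-fold lower genes with the same sign in the Cspg4- line (73.6%) was 77.7% with the percentile over probes detected on all arrays. It was 82.5% with normexp, 57.8% with the second probe, 47.6% without a filter and 80.0% for 4-fold genes. The share of higher genes (71.3%) was 52.9% for 4-fold genes, those in the bright patch included. Without a filter, genes at background in both populations are counted. Other causes were not tested.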

Other observations

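Genes outside the lists, chosen after their values were seen, also stood far from the diagonal in CD1. Of 4 genes for proteins of the cornified envelope, which seals the upper epidermis, Lce1i was at 2.82 against 1.07, Lce1g at 3.73 against 2.18, Lce1f at 0.44 against -1.28 and Lce1c at 1.37 against -0.16. In the Cspg4- line Lce1g differed by -0.10, and Lce1f and Lce1c were not well above background. Rnase2a, a secreted ribonuclease, was at -0.89 against -3.02, and Lilr4b at -0.42 against -2.21. Both were higher in the Cspg4- line as well, by 2.48 for Rnase2a and by 1.02 for Lilr4b. Cyp26b1, which degrades retinoic acid, was at 6.59 against 4.99, with -0.03 in the Cspg4- line. Yes1, a Src family kinase, was at -0.70 against -3.47 in CD1 and differed by -0.27 in the Cspg4- line.

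Lower in CD1 Sdc4+ cells were Cavin4, a caveolar protein of muscle, at -2.53 against 0.35, and Pgm5, a protein of muscle adherens junctions, at -2.98 against -0.74 but with a second probe at -0.47, both lower in the Cspg4- line as well, by 1.40 and at least 0.71. Msln, mesothelin, was at -1.13 against 1.11, and its bound in the Cspg4- line was -2.99. Aqp3, a water and glycerol channel of the epidermis, was at -3.72 against -1.42 in CD1 and higher by 0.82 in the Cspg4- line.

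Among genes on 1 CD1 array alone, 2 chemosensory receptor genes were among the 10 lowest bounds: Olfr524 at 0.66 and Vmn2r7 at 0.21 on the Sdc4- array. Outside the patches the highest bounds after Fcgr3 were those of Prl8a2, Clasp2 and Magix, at 3.33, 3.31 and 3.29, each well above background on 1 of the 7 arrays. Each of these values rests on 1 spot.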
